A study of Mus musculus with 12 samples.

Results

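Zbtb16 is 1 of the 45777 genes in the deposited gene table (gene ID 235320) and has 2 of the 129299 transcripts in the transcript table. It was chosen by its measured level, which was higher in libraries of separated pups with an intact astrocyte glucocorticoid receptor than in those of their controls. That difference, and every comparison that uses those libraries, is therefore given as a description with no test. Polyadenylated RNA was sequenced from astrocytes purified from the cerebral cortex of mice at postnatal day 14. All 4 groups carry a floxed glucocorticoid receptor gene (Nr3c1 flox/flox) and received 4-hydroxytamoxifen (4-OHT) from day 5 to day 7. Cre- control and Cre- ESD animals carry no recombinase. AGR cKO control and AGR cKO ESD animals carry in addition Aldh1l1-CreERT2, a tamoxifen-activated Cre whose expression follows the astrocyte gene Aldh1l1. Pups of both ESD groups were kept from the dam for 3 hours daily between day 1 and day 14. Each group has 3 libraries, and the labels do not say whether a library came from 1 animal or several, so p-values measure the spread between these libraries.

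Zbtb16 encodes a transcription factor, also called PLZF, with a BTB domain that recruits corepressors and histone deacetylases and a row of zinc fingers that bind DNA. It is known for its roles in natural killer T cells, in the self-renewal of mouse spermatogonial stem cells and in limb patterning. Glucocorticoid and progesterone hormones are known to raise its transcription in human and rodent cells. When hormone binds, the glucocorticoid receptor moves into the nucleus and acts on genes such as Fkbp5, Tsc22d3, Sgk1, Per1 and Hif3a.

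Total counts per library were 4.26e+07 to 5.21e+07. The 12 astrocyte markers examined, among them Aqp4 and Slc1a2, summed to 37430 to 53230 CPM (read counts scaled by library size and TMM factor) in the 12 libraries. Nr3c1, the targeted gene, separated the genotypes in every library. It stood at 214, 210 and 237 CPM in Cre- control and at 209, 205 and 199 CPM in Cre- ESD. With the recombinase it stood at 102, 93.2 and 108 CPM in controls and at 90.5, 66.6 and 95.9 CPM after ESD. In these bulk libraries fewer cells with a transcript and less transcript per cell cannot be told apart. Library 3 of Cre- ESD stood apart from the other libraries of its group in glucocorticoid-induced genes, and several, though not all, results that rest on it are given with and without it.

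The gene lies on chromosome 9 (mm10, 48651797 to 48836225, minus strand). Variant 1 (NM_001033324, 7610 bases) spans 48651797 to 48835941 and variant 2 (NM_001364543, 7628 bases) spans 48651797 to 48836225. In the GENCODE M21 models of the same build each has 7 exons, and exons 2 to 6 have the same coordinates. The coding exons, 6 with 2019 bases in all, are identical in both models, and the models differ in the untranslated first exon and in where the last exon ends. The first exon runs from 48835788 to 48835945 in one model and from 48836054 to 48836222 in the other.

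Zbtb16 was at a low level in every library but those of Cre- ESD. Cre- control libraries 1, 2 and 3 held 13.0, 10.8 and 11.3 CPM, from 594, 460 and 482 counts. Cre- ESD libraries held 54.5, 48.7 and 103.8 CPM, from 2692, 2464 and 4764 counts. The lowest Cre- ESD library was more than 3 times the highest Cre- control library, and the groups did not overlap. In AGR cKO controls the values were 8.88, 11.3 and 9.21 CPM, within or just below the Cre- control range. AGR cKO ESD libraries gave 7.25, 10.6 and 19.0 CPM, so that the second lay within the range of AGR cKO controls, the first below it and the third above it. No AGR cKO ESD library reached the level of any Cre- ESD library.

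**Figure D1:**
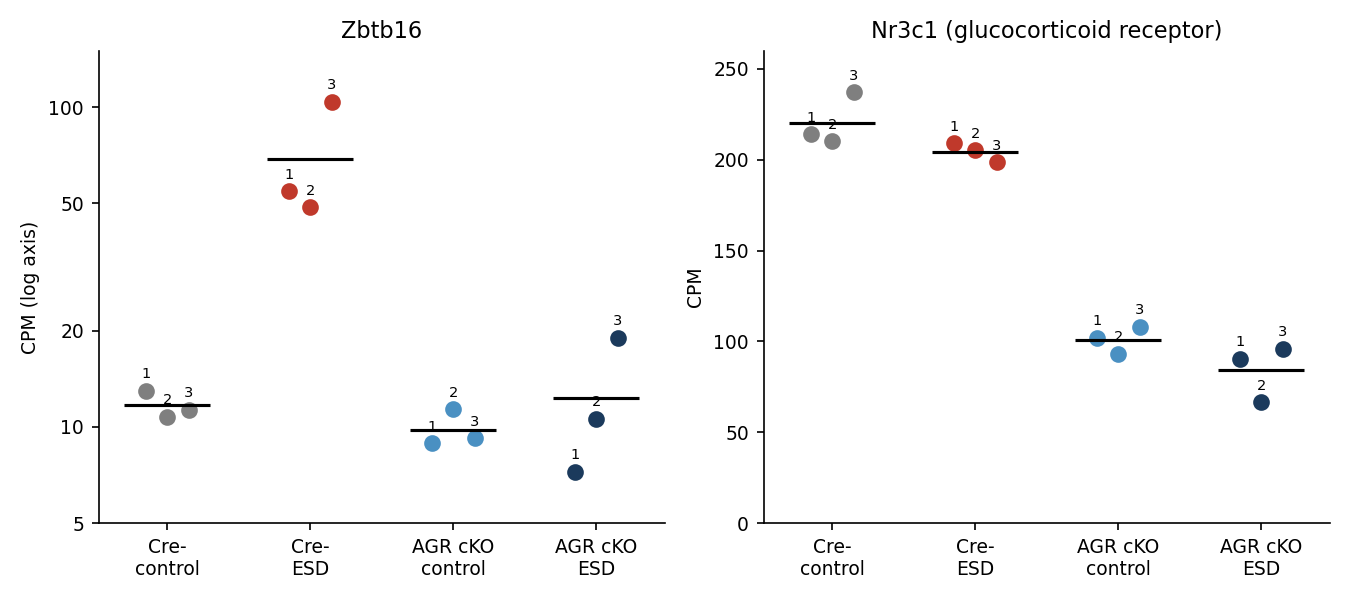
Zbtb16 (left, CPM on a log axis) and Nr3c1 (right, CPM on a linear axis) in each of the 12 libraries, with the library number above each point and the group mean as a line. The 3 Cre- ESD libraries lie between 48.7 and 103.8 CPM of Zbtb16, all other libraries between 7.25 and 19.0 CPM.

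Group means were 69.0 ± 30.3 CPM in Cre- ESD, 12.3 ± 6.06 CPM in AGR cKO ESD, 11.7 ± 1.14 CPM in Cre- control and 9.81 ± 1.34 CPM in AGR cKO control (SD, n = 3 each). Below Cre- ESD, neighbours in that order overlapped. The spread was wider in separated than in control groups of both genotypes: the highest library was 2.13 times the lowest in Cre- ESD and 2.62 times in AGR cKO ESD, against 1.20 and 1.28 times in the controls. In both separated groups library 3 was the highest. On the length-scaled TPM scale the means were 25.6 ± 11.3 in Cre- ESD, 4.60 ± 2.28 in AGR cKO ESD, 4.47 ± 0.65 in Cre- control and 3.74 ± 0.46 in AGR cKO control.

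Whether Zbtb16 differed with separation in animals carrying the astrocyte Cre was asked by comparing the AGR cKO groups, whose libraries did not choose the gene. The edgeR fit took its estimate of the spread from all 12 libraries, those that chose the gene among them. The log2 fold change was 0.32 ± 0.34 (SE; 95% interval -0.41 to 1.06; edgeR quasi-likelihood test, adjusted p = 0.864 over 19163 genes). An exact two-sided permutation test of the log2 values gave p = 0.8, where 0.1 is the smallest that 3 against 3 libraries allow. Zbtb16 was above the AGR cKO control mean in 2 of 3 separated libraries. Without AGR cKO ESD library 3 the estimate turned to -0.14 (adjusted p = 0.918). In this comparison edgeR called 0 of all genes at an adjusted p under 0.05, and 1453 genes had an unadjusted p under 0.05. By DESeq2 the number was 18 and by limma-trend on TPM 0. The 11 mural and fibroblast markers summed to 4897 to 5673 CPM in AGR cKO control and to 1838 to 3945 CPM in AGR cKO ESD, without overlap. The 11 neuronal markers summed to 68.7 to 84.6 CPM and to 47.9 to 53.5 CPM in these groups, also without overlap, with 11 of 11 negative and 7 at an unadjusted p under 0.05; edgeR called 0 of them and DESeq2 2. The part of these markers in this comparison was not tested.

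The genotypes without separation are described only, since the Cre- control libraries served in the comparison that chose the gene. The log2 fold change of Zbtb16 was -0.25 ± 0.34 for AGR cKO control over Cre- control. The libraries of the genotypes overlapped. Hif3a, a hypoxia-inducible factor subunit, differed in the same libraries by -2.08 ± 0.36 (edgeR adjusted p = 0.109, not passed), from 103, 171 and 115 CPM in Cre- control to 30.4, 31.9 and 29.9 CPM in AGR cKO control. Of all genes edgeR called 3 (0.0157%) between the control groups, 0.0104% higher and 0.00522% lower in AGR cKO.

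The 3 other contrasts contain the Cre- ESD libraries and are likewise described only. Separation in Cre- gave a log2 fold change of 2.56 ± 0.35, a 5.91-fold difference, and 2.14 without Cre- ESD library 3. AGR cKO ESD against Cre- ESD gave -2.49 ± 0.35, and -2.07 without that library. The separation difference in AGR cKO minus that in Cre- was -2.24 ± 0.48, and -1.82 without it.

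Among the 11215 genes that averaged 5 CPM or more and are not predicted models, Zbtb16 had the highest separation fold change in Cre-. Next below it were Fkbp5 at 2.40 ± 0.73, Chrna4, a nicotinic receptor subunit, at 2.23 ± 0.89, and Plin4, a lipid droplet coat protein, at 2.13 ± 0.80 on the log2 scale. Plin4 averaged 5 CPM or more only through Cre- ESD, with means of 0.92 to 3.39 CPM in the other groups. Without Cre- ESD library 3, Fkbp5 and Plin4 in Cre- ESD stood at 1.34 and 1.08 times their Cre- control means, and Zbtb16 at 4.42 times. Zbtb16 differed from Fkbp5, Chrna4 and Plin4 in how evenly the 3 libraries carried the difference. Its fold over the Cre- control mean was 4.67, 4.17 and 8.89 in Cre- ESD libraries 1, 2 and 3. Ranked by the lowest of the 3 folds, Zbtb16 came first at 4.17, and the next gene, Chrna4, stood at 1.83. In Cre- ESD library 1 it was the only gene at 4-fold or more; in library 2 Chrna4 was the other one, and in library 3 there were 7 such genes. These ranks restate the difference for which the gene was chosen.

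Glucocorticoid-induced genes were compared library by library with Zbtb16, from a list of 28 that were all tested. Fkbp5, a co-chaperone that dampens receptor signalling, stood at 11.1 and 9.93 CPM in Cre- ESD libraries 1 and 2 and at 103 CPM in library 3, against 6.85, 9.53 and 7.17 CPM in Cre- control. Its fold over the control mean was thus 1.41, 1.26 and 13.2 in libraries 1, 2 and 3, where Zbtb16 already stood at 4.67 and 4.17 in libraries 1 and 2. Plin4 went from 4.17 and 3.12 CPM in libraries 1 and 2 to 37.4 CPM in library 3. Tsc22d3, a leucine zipper protein that mediates anti-inflammatory effects, stood at 140 and 152 CPM in libraries 1 and 2 and at 367 CPM in library 3, against 137, 156 and 189 CPM in control. Zbtb16 was thus high in all 3 libraries, and Fkbp5, Plin4 and Tsc22d3 were far above their controls in library 3 alone.

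Over the whole list, 3 of the 28 genes in Cre- ESD library 1 lay above all 3 Cre- control libraries, which 21.5% of all genes tested did. In library 2 it was 1 of 28, Fkbp5 (all genes 21.8%), and in library 3 it was 21 of 28 (all genes 21.8%). The median log2 ratio to the control mean was -0.07, -0.23 and 0.53 in libraries 1, 2 and 3. No listed gene reached 2-fold in library 1 or 2, where the highest were Hif3a at 1.47-fold and Fkbp5 at 1.26-fold; in library 3 there were 7.

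In AGR cKO the third separated library also carried the most glucocorticoid-induced genes above its controls, at a smaller size. In AGR cKO ESD libraries 1, 2 and 3 the counts were 9, 7 and 21 of 28, against 32.6%, 33.7% and 27.7% of all genes. The median log2 ratio was -0.05, -0.09 and 0.29. Zbtb16 itself stood at 0.74, 1.08 and 1.94 times its AGR cKO control mean, and Fkbp5 was the highest of the 28 in library 3 at 1.72-fold. Nr3c1 was 95.9 CPM in that library, the highest of its group but below every Cre- library.

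**Figure D2:**
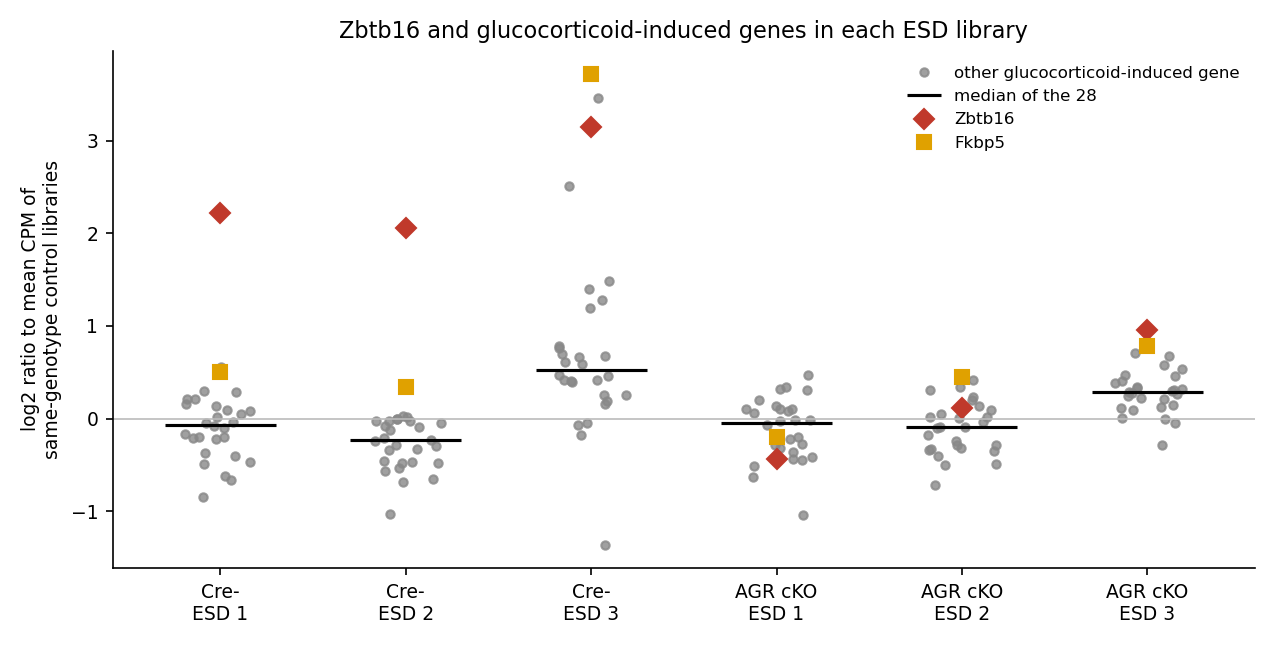
Log2 ratio of each gene in each ESD library to the mean CPM of the 3 control libraries of the same genotype, for Zbtb16 (diamonds), Fkbp5 (squares) and the other genes of the 28 glucocorticoid-induced ones (circles), with the median of the 28 as a line. Zbtb16 lies above all 28 in Cre- ESD libraries 1 and 2 and is passed in library 3 by Fkbp5 and Plin4, at log2 ratios of 3.72 and 3.46.

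In the edgeR fit over all genes, 0 of the 28 were called for separation in Cre- (all genes 0%). An unadjusted p under 0.05 was held by 3, all higher, against 1378 of 19163 genes, 517 of them higher. DESeq2 likewise gave 0. The median log2 fold change was 0.10 with 22 of 28 positive, and turned to -0.14 with 8 positive without Cre- ESD library 3; over all genes the median was -0.02 with 45.9% positive. In AGR cKO 0 were called for separation (all genes 0%), and 1 had an unadjusted p under 0.05, against 1453 of 19163 genes. It was Errfi1, an inhibitor of growth factor receptors, at -0.47 ± 0.21 (edgeR adjusted p = 0.656). DESeq2 gave 0 there too. Sgk1, a hormone-regulated kinase, and Per1, a clock gene, had separation log2 fold changes of 0.05 ± 0.28 and -0.19 ± 0.18 in Cre- (edgeR adjusted p = 0.989 and 0.848).

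The same list leaned lower in AGR cKO than in Cre-, in both control and separated animals. The list was drawn up with earlier results of these data known, so this lean is a description only. In controls 28 of 28 log2 fold changes were negative with a median of -0.65, against a median of -0.01 over all genes, 47.3% of them positive. None was called by edgeR (all genes 0.0157%), and 16 had an unadjusted p under 0.05, against 1958 of 19163 genes. Without Cre- ESD library 3, which enters this contrast only through the shared spread, edgeR called 3 of the 28 (all genes 0.322%). DESeq2 called 4, and 1.67% of all genes to which it gave an adjusted p. Under ESD 27 of 28 were negative with a median of -0.82, against a median of 0.002 over all genes, 50.3% of them positive. There edgeR called 2 of 28, both lower (all genes 1.04% called, 0.584% higher and 0.459% lower). Hif3a fell from 191, 125 and 362 CPM in Cre- ESD to 26.5, 31.0 and 50.2 CPM in AGR cKO ESD (-2.65 ± 0.36, edgeR adjusted p = 0.0185). Mfsd2a, a lysophospholipid transporter, fell from 240, 201 and 474 CPM to 88.0, 93.0 and 148 CPM (-1.48 ± 0.30, edgeR adjusted p = 0.0438). In both genes the groups did not overlap. The Hif3a call was lost without library 1 of Cre- ESD (edgeR adjusted p = 0.0629) or of AGR cKO ESD (0.0687). The Mfsd2a call held without Cre- control library 1 or Cre- ESD library 2 and was lost without any other single library, at -1.01 (edgeR adjusted p = 0.0856) without Cre- ESD library 3. Without that library 7 of 28 fold changes were positive with a median of -0.48. Between the control groups Hif3a did not overlap, nor did Mfsd2a, at 260 to 316 CPM in Cre- and 103 to 141 CPM in AGR cKO, while Zbtb16 did. Hif3a and Mfsd2a had the smallest p of the list in that contrast. Fkbp5, Tsc22d3, Per1, Plin4, Gjb6, Bcl6 and Map3k6 did not overlap either. Sgk1, Errfi1 and Angptl4 overlapped, like Zbtb16. How many of the 28 or of all genes overlapped was not counted. Whether the genes differ in this was not tested.

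Summed markers of other cell types differed between groups as follows. The 12 microglial and macrophage markers summed to 341 to 971 CPM in Cre- control and 466 to 793 CPM in Cre- ESD, against 183 to 435 CPM in AGR cKO control and 155 to 416 CPM in AGR cKO ESD. These sums overlapped between the genotypes in controls and not under ESD. In both contrasts 12 of 12 were lower in AGR cKO, with medians of -1.02 in controls and -1.09 under ESD. At an unadjusted p under 0.05 there were 7 in controls and 9 under ESD, against 1958 and 2989 of 19163 genes. The 11 endothelial markers summed to 358 to 1871 and 435 to 1102 CPM in the Cre- groups and to 349 to 748 and 246 to 478 CPM in the AGR cKO groups, with overlap in both. The 5 erythroid markers summed to 132 to 224 CPM in Cre- ESD and to 25.4 to 107 CPM in AGR cKO ESD, without overlap, and 5 of 5 were lower at an unadjusted p under 0.05. In that contrast 2989 of 19163 genes had such a p, 1471 of them lower. The 9 ependymal and choroid plexus markers summed to 72.6 to 124 CPM in Cre- control and to 55.8 to 69.8 CPM in Cre- ESD, the groups between which Zbtb16 was chosen, without overlap, and 3 of 9 were lower at an unadjusted p under 0.05. There 1378 of 19163 genes had such a p, 861 of them lower. Between the genotypes in controls 6 of the 9 ependymal and choroid plexus markers were lower at that p, against 1958 of 19163 genes, 1138 of them lower. EdgeR called 0 members of these 4 lists in any contrast (all genes at most 1.04%). DESeq2 called 3 ependymal markers in controls, and 2 ependymal, 1 erythroid and 1 microglial marker under ESD. Of all genes with a DESeq2 adjusted p it called 1.67% in controls and 4.73% under ESD. Neuronal sums did not overlap between the genotypes and turned direction. They were 53.2 to 63.7 CPM in Cre- control and 68.7 to 84.6 CPM in AGR cKO control. Under ESD they were 53.9 to 76.5 CPM in Cre- and 47.9 to 53.5 CPM in AGR cKO. EdgeR called 0 of the 11 neuronal markers in either contrast. DESeq2 called 2 in controls and 1 under ESD, where it also called 2 oligodendrocyte precursor markers. Between Cre- control and Cre- ESD the microglial, endothelial and erythroid sums overlapped. The part of these markers in the results was not tested. Markers of T and natural killer cells, of which some subsets are known to hold PLZF, were near 0. The 14 lymphocyte markers together summed to 1.94 to 3.44 CPM in Cre- ESD and to 2.01 to 3.66 CPM in Cre- control, and Cd3e, Trbc1 and Nkg7 had no count in any Cre- ESD library.

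The transcript table divided the Zbtb16 reads between the variants unevenly. Variant 2 was present in every library, at 15.5, 9.0 and 24.1 TPM in Cre- ESD libraries 1, 2 and 3 and at 1.93 to 5.20 TPM elsewhere. Variant 1 had 603, 1247 and 1779 counts in Cre- ESD libraries 1, 2 and 3. In each other group 1 library of 3 held it and the rest had at most 3 counts. It had 0, 2 and 148 counts in Cre- control, 178, 2 and 0 in AGR cKO control, and 0, 3 and 607 in AGR cKO ESD.

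Variant 1 therefore made up 22.4% (exact 95% binomial interval 20.8% to 24.0%), 50.6% (48.6% to 52.6%) and 37.3% (36.0% to 38.7%) of the Zbtb16 counts in Cre- ESD libraries 1, 2 and 3. It made up 30.7% in Cre- control library 3, 39.2% in AGR cKO control library 1 and 72.7% in AGR cKO ESD library 3, and at most 0.56% in the other libraries. A count of 0, taken as fewer than 3 counts of the library's Zbtb16 total, allows a share of up to 0.505% in Cre- control library 1, 0.744% in AGR cKO control library 3 and 0.831% in AGR cKO ESD library 1. These limits and intervals cover counting error only. The variants share their coding exons, and how the authors' software assigned the shared reads is not given in the sources used here. Its part in the all-or-none form of the division was not tested.

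**Figure D3:**
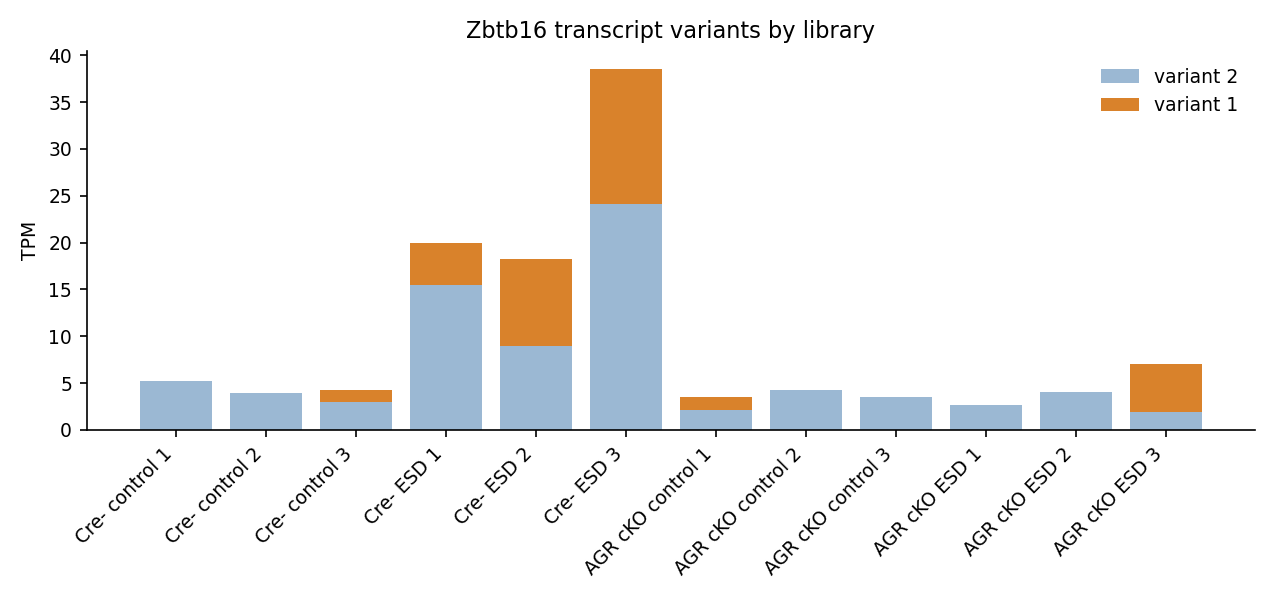
TPM of both Zbtb16 transcript variants in each library, stacked (variant 2 below, variant 1 above), on a linear axis from 0. Variant 1 appears in all 3 Cre- ESD libraries and in 1 library of each other group.

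Fitted over 62862 transcripts, variant 2 had a log2 fold change for separation of -0.17 ± 0.42 in AGR cKO (edgeR adjusted p = 1). For variant 1 it was 1.96 ± 2.61 (edgeR adjusted p = 1). Between the genotypes in control the described differences were -0.27 ± 0.42 for variant 2 and 0.03 ± 2.54 for variant 1. In Cre- the described separation difference of variant 2 was 2.07 ± 0.43, and the 3 Cre- ESD libraries lay above the 3 controls for each variant.

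Zbtb16 belongs to the BTB zinc finger family, in which the pairing of a BTB domain with DNA-binding fingers is shared. Of 44 other family genes in the table, 43 were tested, and edgeR called 0 of them in any of the 5 contrasts. For separation in Cre- and in AGR cKO, genotype in control and under ESD, and the interaction, the share of all genes called was 0%, 0%, 0.0157%, 1.04% and 0%. DESeq2 called 1 of the 43 for genotype under ESD, and 4.73% of all genes with a DESeq2 adjusted p. Their median separation log2 fold change was -0.08 in Cre- and -0.07 in AGR cKO, with 12 of 43 positive in each. At an unadjusted p under 0.05 there were 3 in Cre-, all lower, and 5 in AGR cKO, of which 2 were higher. Of all 19163 genes 1378 and 1453 had such a p, so the share in Cre- was close to that of all genes. The highest of the 43 in Cre- was 0.27, against 2.56 for Zbtb16. By TPM, Zbtb16 ranked 39th of the 45 family genes in 8 of the 9 libraries outside Cre- ESD and 34th in AGR cKO ESD library 3. It ranked 10th, 11th and 5th in Cre- ESD libraries 1, 2 and 3. Zbtb20, a regulator of astrocyte development, had the highest family TPM in 10 of 12 libraries.

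**Figure D4:**
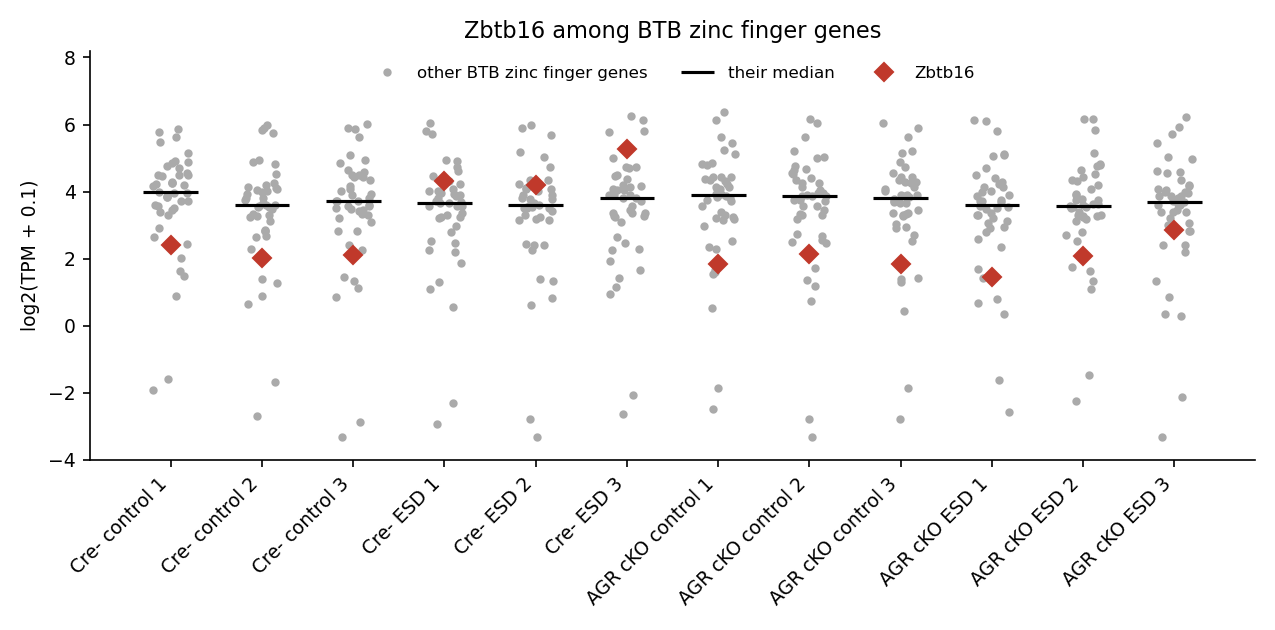
Log2(TPM + 0.1) of the 45 BTB zinc finger genes in each library, Zbtb16 as diamonds, the others as circles and their median as a line. Zbtb16 lies below the family median outside Cre- ESD and above it in the 3 Cre- ESD libraries.

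Zbtb7b, which directs CD4 T cell fate, had a separation log2 fold change of -0.43 ± 0.16 in Cre-, and Zbtb40 one of -0.43 ± 0.13 (edgeR adjusted p = 0.653 and 0.627). Bcl6, a repressor that is also on the glucocorticoid-induced list, was at -0.77 ± 0.28 for genotype in control (edgeR adjusted p = 0.38). It stood at 41.3, 47.2 and 102 CPM in Cre- ESD libraries 1, 2 and 3, against 65.6, 79.7 and 77.1 CPM in Cre- control, so that libraries 1 and 2 lay below the controls and library 3 above.

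Genes that work with PLZF were measured through a list of 18 corepressors, deacetylases and other binding partners, of which 16 were tested. EdgeR called 0 of them in any of the 5 contrasts (all genes 0%, 0%, 0.0157%, 1.04% and 0%, in the order given for the family). For separation in Cre- the median log2 fold change was -0.04, with 3 of 16 at an unadjusted p under 0.05, all lower, against 1378 of 19163 genes. DESeq2 called 0 there and 1 for genotype under ESD, where it called 4.73% of all genes with an adjusted p. Hdac5, a class II histone deacetylase, stood at 82.6, 88.8 and 95.6 CPM in Cre- control and at 68.3, 63.4 and 77.3 CPM in Cre- ESD (-0.35 ± 0.09, edgeR adjusted p = 0.627). The groups did not overlap. Sin3a, a corepressor scaffold, was at -0.14 ± 0.06 (edgeR adjusted p = 0.691), and Ncor1, the nuclear receptor corepressor, at 213 to 230 CPM in Cre- ESD and 222 to 234 CPM in Cre- control.

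Of 9 genes reported elsewhere as PLZF targets, among them Ddit4 and Fgfr3, which stand on other lists here too, 6 were tested, and edgeR called 0 in any contrast (all genes at most 1.04%), as did DESeq2. For separation in Cre- 0 had an unadjusted p under 0.05, against 1378 of 19163 genes, and in AGR cKO 2 did, both lower, against 1453. With 6 genes a count of 0 says little. Ccna2, a cyclin that human PLZF represses, stood at 22.2, 11.5 and 13.3 CPM in Cre- control and 13.4, 14.5 and 10.7 CPM in Cre- ESD (-0.28 ± 0.31, edgeR adjusted p = 0.874). Kit, a receptor kinase that mouse Plzf represses in spermatogonia, stood at 22.7, 8.90 and 14.9 CPM and at 15.7, 11.8 and 10.2 CPM (-0.30 ± 0.28, edgeR adjusted p = 0.844). For both genes the libraries overlapped. In AGR cKO, Runx2, an osteoblast factor downstream of human PLZF, was at -0.92 ± 0.31 for separation (edgeR adjusted p = 0.647).

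Of 14 genes of the receptor's own machinery, namely chaperones, steroid enzymes and coactivators, edgeR called 0 in any contrast (all genes at most 1.04%). For separation 1 had an unadjusted p under 0.05 in Cre-, a share close to that of all genes, and 0 did in AGR cKO. DESeq2 called 1, for genotype under ESD, where it called 4.73% of all genes with an adjusted p. Nr3c2, the mineralocorticoid receptor, which also binds corticosterone, stood at 34.0, 33.7 and 40.9 CPM in Cre- control and at 52.0, 48.7 and 46.2 CPM in AGR cKO control (0.44 ± 0.12, edgeR adjusted p = 0.261). The groups did not overlap. Stip1, an Hsp90 co-chaperone, was at -0.25 ± 0.09 for separation in Cre- and at 0.17 ± 0.09 in AGR cKO (edgeR adjusted p = 0.653 and 0.712).

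Neighbours of Zbtb16 on chromosome 9 were examined within 500 kb of either end. RefSeq lists 25 genes there (GRCm38.p6), of which 21 were in the table and 11 were tested, and 0 were called for separation or genotype (all genes at most 1.04%). With 11 genes such a count says little. The predicted gene Gm32280 (48670083 to 48674689) lies inside Zbtb16 and held at most 0.04 CPM in any library. Nnmt, nicotinamide N-methyltransferase, 44142 bases beyond the 3′ end, stood at 0.16 to 0.73 CPM in all libraries. Rbm7, an RNA-binding protein of the nuclear exosome, stood at 39.2 to 41.8 CPM in Cre- control and 40.9 to 44.4 CPM in Cre- ESD (0.07 ± 0.08, edgeR adjusted p = 0.868). The serotonin receptor subunit genes Htr3a and Htr3b, beyond the 5′ end, held at most 0.30 and 0.12 CPM.

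**Figure D5:**
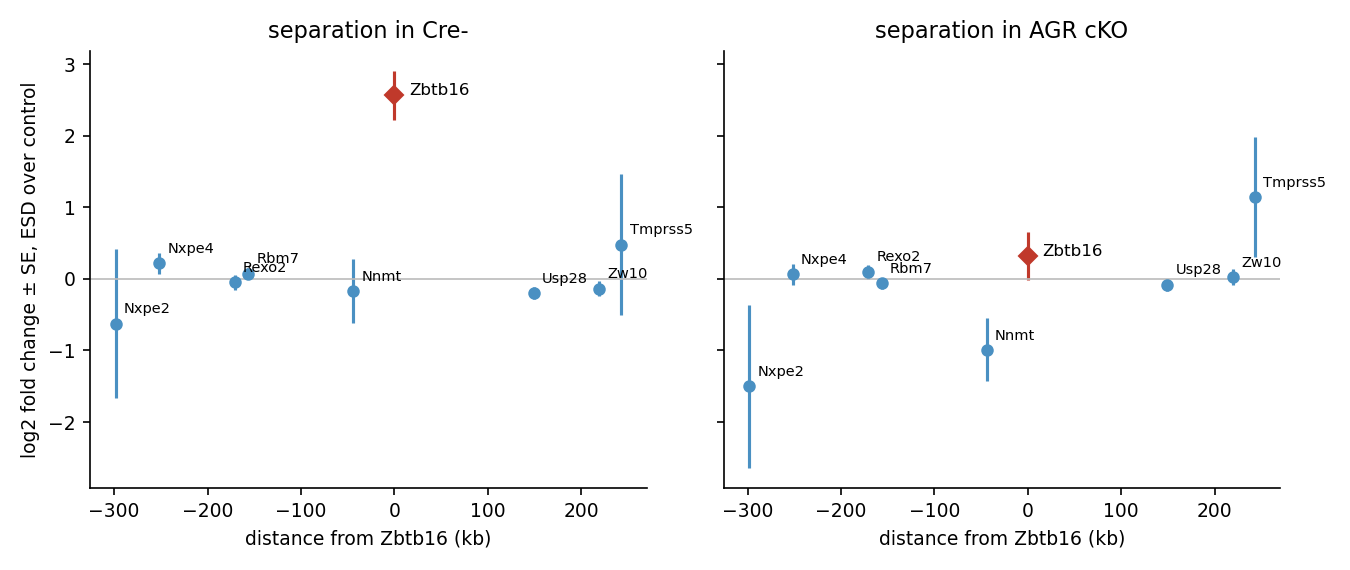
Log2 fold change of ESD over control, with its standard error as bars, for Zbtb16 (diamond, at 0) and the named genes tested within 500 kb (circles), against distance from the nearer end of Zbtb16 in kb, negative on its 3′ side, in Cre- (left) and AGR cKO (right). Zbtb16 stands at 2.56 in Cre- and 0.32 in AGR cKO, and neighbours at 20 CPM or more in every library lie between -0.20 and 0.22 in both. The low-level neighbours Nxpe2, Nnmt and Tmprss5 lie at -0.63, -0.17 and 0.48 in Cre-. In AGR cKO they lie at -1.50, -0.99 and 1.14.

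The genes most like Zbtb16 across the 12 libraries were ranked by Pearson's r of log2 CPM among 11214 genes, as a description. Highest were Plekhg1, a guanine nucleotide exchange factor, at an r of 0.92, Bcat1, a branched-chain amino acid transaminase, at 0.90, Ptprj, a receptor phosphatase, at 0.90, Cd274, the ligand PD-L1, at 0.89, and Fam184a at 0.89. Otulin, a deubiquitinase of linear chains, Ksr1, a scaffold of the ERK pathway, and Zzef1 followed at 0.87 to 0.88. Bcat1 and Cd274 averaged 5 CPM or more only through Cre- ESD, where they were highest. Their means in the other groups were 3.64 to 5.51 CPM and 4.78 to 5.24 CPM. Ptprj stood at 82.2, 60.6 and 107 CPM in Cre- ESD, above 36.0 to 52.3 CPM in Cre- control and 25.5 to 32.0 CPM in AGR cKO libraries. Like Zbtb16, all 8 genes were higher in every Cre- ESD library than in any other. Ranking by likeness to a gene chosen for its level in Cre- ESD favours such genes. The libraries share the split between Cre- ESD and the rest; over the other 9 libraries the r of these 8 genes was 0.06 to 0.60. By Spearman's rank correlation 0 of the 8 stayed among the highest 8, and without Cre- ESD library 3 it was 2.

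The lowest r belonged to Faap100, a Fanconi anaemia core complex protein, at -0.97, Ncs1, a neuronal calcium sensor, at -0.95, Sall2, a zinc finger transcription factor, at -0.94, and Myo19, a mitochondrial myosin, at -0.93. Faap100 stood at 15.5, 15.8 and 14.5 CPM in Cre- ESD and at 18.8 to 19.5 CPM in the other 9 libraries, without overlap. By deviations from the group means, which set the group differences aside, the most alike were Med13l, a subunit of the Mediator kinase module, at an r of 0.95, Gmeb2, which binds glucocorticoid modulatory elements, at 0.95, Galnt17 at 0.94 and Retreg1, a receptor for autophagy of the endoplasmic reticulum, at 0.93. Med13l was highest in library 3 of both separated groups, at 101 CPM in Cre- ESD and 92.0 CPM in AGR cKO ESD, against 76.5 to 85.3 CPM in the other 10 libraries. Of the 28 glucocorticoid-induced genes, Map3k6 had the highest r within groups at 0.88 and Fkbp5 the highest over the 12 libraries at 0.85. Over the 9 libraries outside Cre- ESD the r of log2 CPM was 0.73 for Map3k6 and 0.60 for Fkbp5. It was 0.91, 0.92, 0.56 and 0.49 for Med13l, Gmeb2, Galnt17 and Retreg1. The within-group values are not given without Cre- ESD library 3.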

How the data were processed

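Per the file headers, 12 libraries have deposited gene-level and transcript-level read counts, FPKM and TPM. Counts are whole numbers with no stated normalization; FPKM values are the authors' length- and depth-scaled fragments, and the deposited TPM values sum to nearly the same total in each library. Tools listed without roles in the submitters' processing notes are StringTie 1.3.4b, DESeq2, Trimmomatic, Bowtie2, HISAT and HISAT2 2.1.0, with mm10 as the build; the counting step and its use of strand are not given in the sources used here. Stranded mRNA libraries were made from RNA of integrity above 7.0, per the labels' protocols. Columns named cre_M and cre_P were read as Cre- and AGR cKO, and groups follow the sample titles, since genotype entries carry a number that counts up.

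Counts of 19163 genes kept by filterByExpr were scaled by TMM and fitted with edgeR 4.0.16 (R 4.3.3), 1 mean per group over 12 libraries, two-sided, with Benjamini-Hochberg adjustment and a threshold of 0.05. Transcripts were fitted alike. The standard error is the fold change over the square root of F. Log2 CPM used a prior count of 2. The fit was tested on simulated data. Alternatives were DESeq2 1.42.0, limma-trend (limma 3.58.1) on log2(TPM + 1) and log2(TPM + 0.1), other scalings, filters, samples, dispersion and a replicate block. FPKM gave no printed value. Sequences of Zbtb16 are not used here.

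Zbtb16, the gene lists and the tests were chosen with earlier results of these data known. Named genes are Zbtb16, Nr3c1, 5 glucocorticoid-induced genes, called list members (at most 4 per list and comparison) or, without calls, at most 2 by smallest p, the 2 nearest named neighbours on each side, the nearest ranks by fold, and the 8 highest, 4 lowest and 4 highest within-group correlates among genes averaging 5 CPM or more. Values are printed for a choice of these. Gm32280 and Map3k6, the values of Bcl6 by library and those of Mfsd2a in controls were added after values were seen. So were Nxpe2 and Tmprss5, the overlap of other listed genes in controls and the neuronal sums between genotypes.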

Additional observations from a re-analysis of the deposited data

How the results depend on the processing

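Over the 5 contrasts of Zbtb16, 107 of 109 alternative values counted as unchanged. For separation in AGR cKO and genotype in control this meant the same direction and the same side of the threshold. For the 3 other contrasts it meant the same direction and a move of less than the pooled SD between libraries (0.471 on the log2 scale). With 1 library left out at a time, Zbtb16 ranged from 2.14 to 2.76 for separation in Cre-, -0.14 to 0.60 in AGR cKO, -0.37 to -0.17 for genotype in control, -2.95 to -2.07 under ESD and -2.71 to -1.82 for the interaction. In AGR cKO the sign turned without AGR cKO ESD library 3, which also moved the interaction most. Its adjusted p for separation in AGR cKO was at least 0.779 under the alternatives run. Over 18 pairs of same-numbered libraries the correlation of deviations from the group means was -0.104 to 0.227, and above 0.1 in 7. With no reference for such values, this cannot tell whether the numbers pair the libraries. The main fits treat them as unpaired. With a replicate block Zbtb16 stood at 2.48, 0.23, -0.25, -2.50 and -2.25 in the 5 contrasts, edgeR called 0, 0, 2, 244 and 0 genes, 6 of the 28 glucocorticoid-induced genes were called for genotype under ESD, and variant 1 turned to -2.36 for separation in AGR cKO.

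Counts of called genes moved more. DESeq2 called 24 genes for separation in Cre-, 18 in AGR cKO, 276 for genotype in control, 801 under ESD, 9 for the interaction, and 12 of the 28 under ESD. With only the groups compared, edgeR called 31 genes for genotype in control, 0 under ESD and 0 of the 28. Without a filter on low counts it called 100 genes and 1 of the 28 under ESD, and limma-trend on log2(TPM + 1) called 1 of the 28. Leaving out 1 library gave 0 to 1 genes for separation in Cre-, 0 to 63 for genotype in control (63 without Cre- ESD library 3), 2 to 280 under ESD (2 without Cre- ESD library 1), and 0 to 5 of the 28 under ESD. Variant 1 then ranged from -5.19 to 7.54 for separation in AGR cKO and from -5.56 to 5.56 for genotype in control, and variant 2 from -0.47 to 0.077 for separation in AGR cKO. The 8 genes most like Zbtb16 shared 0, 5 and 2 members with those by Spearman's rank correlation, by log2(TPM + 1) and without Cre- ESD library 3. The cause of these shifts was not tested.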
